A study of Mus musculus with 6 samples.

Results

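Transcripts of 7 genes that encode the myosin chains and myosin-binding proteins of the ventricular thick filament were followed in RNAseq of mouse hearts. The genes were Myh6, Myh7, Myh7b, Myl2, Myl3, Mybpc3 and Mylk3, chosen by name, and all 7 were found by their Ensembl identifier among the 16018 genes of the deposited table. The study sequenced hearts of 3 female NBCe1-B/C KO mice (KOb/c) and 3 female WT mice aged 4 to 5 weeks, both from crosses of heterozygous parents on a C57BL/6J background. NBCe1 is a Na+-HCO3- cotransporter encoded by Slc4a4, and the KOb/c mice lack its B and C variants in every tissue, so that effects that arise within cardiomyocytes and effects that reach the heart from other organs cannot be told apart. The comparison asks how loss of these variants bears on the transcripts of the heart. The labels name no treatment, and each library came from the heart of 1 mouse.

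The thick filament of heart muscle is built of myosin hexamers, each holding a pair of heavy chains, a pair of essential light chains and a pair of regulatory light chains. In rodents the heavy chain switches around birth from the slow beta form (Myh7), which prevails in the fetal ventricle, to the fast alpha form (Myh6), which prevails in the adult, under thyroid hormone. Cardiac myosin-binding protein C (Mybpc3) holds myosin heads near the filament, and cardiac myosin light chain kinase (Mylk3) phosphorylates the ventricular regulatory light chain (Myl2). A rise of Myh7 over Myh6 is known as a mark of the stressed or failing rodent heart.

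The 3 sarcomeric heavy chain genes share more than their products, since an intron of each holds a microRNA hairpin. The mature forms with related seeds are shown here because they tie the 3 loci together. They are taken from RefSeq (GRCm38.p6), with bases 2 to 8, the seed, in capitals.
miR-208a-3p, Myh6 intron, chr14:54949072-54949093, reverse strand: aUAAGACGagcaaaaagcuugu
miR-208b-3p, Myh7 intron, chr14:54975710-54975731, reverse strand: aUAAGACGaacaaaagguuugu
miR-499-5p, Myh7b intron, chr2:155622893-155622913, forward strand: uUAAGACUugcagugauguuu
The seed UAAGACG was the same in miR-208a-3p and miR-208b-3p, and that of miR-499-5p read UAAGACU. The deposited counts fall on annotated genes, and they give no level of a mature microRNA.

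Myh6 and Myh7 also lie next to each other on chromosome 14, and the bases from -250 to -51 relative to their RefSeq starts are shown because the counts of these neighbours differed unequally between the genotypes. The RefSeq start of Myh6 lies 320 bases inside the gene extent given below, so its bases shown fall within that extent. The capitals mark the MCAT motif, searched as CATTCC on both strands, which TEAD factors bind.
Myh6, chr14:54966658-54966857, GRCm38.p6, reverse strand: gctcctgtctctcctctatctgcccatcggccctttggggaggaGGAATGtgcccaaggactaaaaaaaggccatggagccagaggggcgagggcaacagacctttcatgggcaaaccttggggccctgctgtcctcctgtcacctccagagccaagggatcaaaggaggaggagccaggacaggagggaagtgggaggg
Myh7, chr14:54994677-54994876, GRCm38.p6, reverse strand: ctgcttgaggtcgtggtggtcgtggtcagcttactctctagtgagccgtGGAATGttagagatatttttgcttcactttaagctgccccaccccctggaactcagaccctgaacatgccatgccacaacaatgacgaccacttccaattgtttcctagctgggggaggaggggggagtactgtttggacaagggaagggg
Each held 1 MCAT motif, whose first base lay at -206 from the start in Myh6 and at -201 in Myh7. The Myh7 start shown was picked because it held the motif. The 250 bases before another RefSeq start of Myh7, at 54994549, held 0. Among the other members, windows of Myl3 and Mylk3 held 2 and 1. Of 32851 RefSeq windows of the 250 bases before a start, 12.6% held the motif on either strand. In their own 250 bases, neither gene held GATAA, the core that GATA factors bind and that 22.6% of the windows held. The same was true of the thyroid receptor half-site AGGTCA, found in 14% of the windows, and of the TATA box letters TATAAA, found in 12.4%, each on either strand. Only these exact letters were searched, so a site with other letters would have been missed, and the lack of a match does not show that a site is absent. A match of letters is a description and shows no binding.

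The 6 libraries held between 41364857 and 49100802 reads on genes, and each library labelled KOb/c was deeper than each WT library. At this depth counting error was at most 1.99% of the count for any member. The targeted gene, Slc4a4, stood at 264.0, 944.8 and 268.7 normalized counts (replicates 1 to 3 labelled KOb/c) and at 675.1, 822.2 and 788.8 (WT replicates 1 to 3). The library labelled KOb/c replicate 2 thus goes against its label, and values without it are given beside the results. Over all genes, which do not vary independently of each other, longer transcripts had larger log2 differences between KOb/c and WT (Spearman's rho = 0.45 with the longest annotated transcript). The median log2 difference ran from -0.20 in genes under 1000 nucleotides to 0.27 in genes of 8000 nucleotides or more. Each member is therefore also given after a correction that removes this trend and that of GC content. The tissue was checked by its markers, and all 16 cardiomyocyte markers other than members were in the table. Their summed level was 2890539 to 3337618 in KOb/c and 2793897 to 2885639 in WT libraries. The most abundant of them weigh most in this sum, such as Atp2a2, at 814026 ± 87717 in KOb/c and 582360 ± 39925 in WT (SD). The median log2 difference of the 16 was 0.00. Without overlap, 4 were higher and 4 lower in KOb/c, beside 15.6% and 14.6% of all genes.

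The alpha heavy chain transcript was higher in all KOb/c libraries by a log2 difference of 0.55, a call by DESeq2 but not by limma. The ventricular light chains stood at -0.18 and -0.23 as deposited and at -0.01 and -0.07 with overlap after a correction for length and GC content, and the beta heavy chain overlapped between the groups at a low level. Of the 7 members, 0 passed an adjusted p of 0.05 by limma with Benjamini-Hochberg adjustment over all genes, where 0% of the 16016 genes tested passed. At an unadjusted p under 0.05 by limma there was 1 member, Myh6, beside 23.5% of all genes. By the quasi-likelihood test of edgeR 0 members passed the adjusted threshold. By DESeq2 there were 2, Myh6 higher and Myl3 lower, where 6.15% of all genes were called higher and 3.76% lower. After the correction for length and GC content DESeq2 called 1 member, Myh6, higher, beside 1.11% of all genes. Myh6 and Mybpc3 were higher in all 3 libraries labelled KOb/c than in all 3 WT libraries, as were 15.6% of all genes. Myl2 and Myl3 were lower in all 3, as were 14.6% of all genes, and the groups of the remaining 3 members overlapped.

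**Figure D1:**
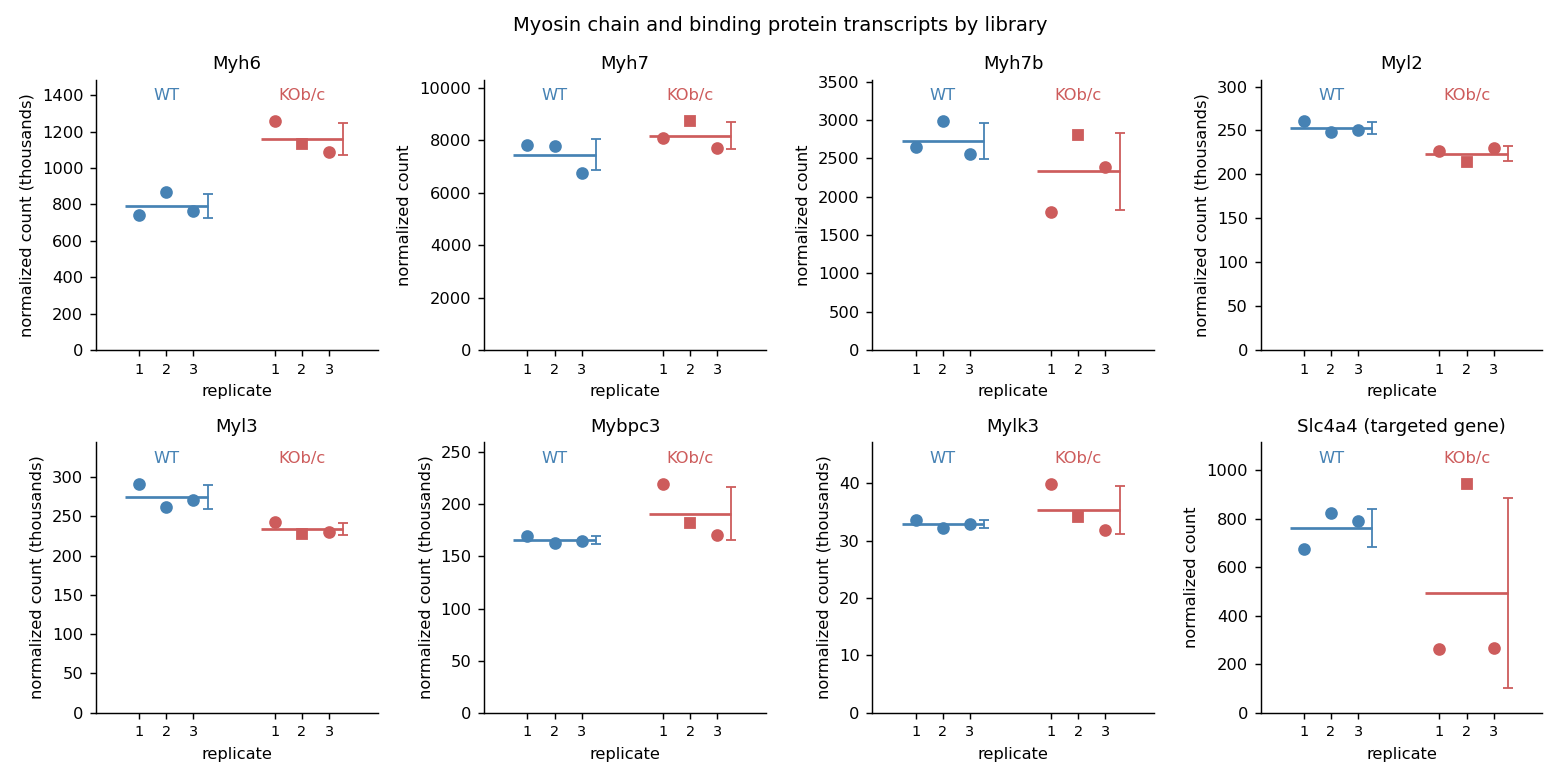
Normalized counts (vertical axes, from 0) of the 7 members and of Slc4a4 in each library (horizontal axis, replicate), with the mean (line) and SD (bar) of the 3 WT (blue) and 3 KOb/c (red) libraries; the square is KOb/c replicate 2. The Myh6 values of KOb/c, from 1086163 upward, lie above each WT value, and those of Myl2 and Myl3 lie below each WT value.

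Myh6 encodes the alpha heavy chain, the fast motor of the adult mouse ventricle (ENSMUSG00000040752; chromosome 14 of GRCm38, 54941921 to 54966927, reverse strand). Its normalized count was 1259229.8, 1132833 and 1086163 in KOb/c replicates 1, 2 and 3. In WT replicates 1, 2 and 3 it was 742963, 869071 and 765017. All 3 KOb/c libraries were above the highest WT library, with no overlap. The mean was 46.3% higher in KOb/c (WT: 792350.4 ± 67351, KOb/c: 1159409 ± 89542, SD, n = 3 per group). The log2 difference was 0.55 (SE 0.18), with an adjusted p of 0.119 by limma, 0.0805 by edgeR and 4.56e-06 by DESeq2. An exact two-sided permutation test gave p = 0.1, the smallest that 3 mice against 3 allow. In bulk hearts, a larger share of cells of a type and more RNA in each of them cannot be told apart.

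The excess of Myh6 remained after the length and GC correction, when its log2 difference was 0.42 (SE 0.23) and the groups again did not overlap. So corrected, 11.2% of all genes were higher without overlap, and the adjusted p of Myh6 was 0.431 by limma and 0.000780 by DESeq2. Genes of like length, from 6000 to 8000 nucleotides, had a median log2 difference of 0.18 before the correction. Without the library labelled KOb/c replicate 2 the log2 difference was 0.57 as deposited and 0.44 corrected, and the adjusted p by DESeq2 was 6.83e-05 as deposited. With each library set to its cardiomyocyte markers, which are not members, it was 0.49. Quantile normalization, which forces the same set of values on every library, brought it to 0.16. Myh6 was the gene of rank 3 by mean count among all 16018.

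Myh7 encodes the beta heavy chain, the slow motor of the fetal mouse ventricle (ENSMUSG00000053093; chromosome 14, 54970684 to 54994626, reverse strand). It stood at 8074, 8728 and 7704 normalized counts in KOb/c replicates 1, 2 and 3, against WT values of 7816, 7765 and 6749, given here and for the other members in the order of their replicates. The groups overlapped, with the lowest KOb/c value under 2 of the WT values. The difference of means did not pass the test (WT: 7443 ± 602, KOb/c: 8169 ± 518, SD, n = 3 per group), a log2 difference of 0.14 (SE 0.08, adjusted p = 0.340 by limma). Corrected for length and GC content the log2 difference was 0.00 (SE 0.07). Without KOb/c replicate 2, in which Myh7 was highest, it was 0.09 as deposited and -0.04 corrected.

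Myh7b encodes a slow-type heavy chain of ancient origin that heart muscle transcribes while making little of the protein (ENSMUSG00000074652; chromosome 2, 155611212 to 155634307, forward strand). Its counts were 1800.3, 2804 and 2387 in KOb/c replicates 1, 2 and 3, against WT values of 2643, 2989 and 2552. KOb/c replicate 1 was the lowest of all 6 and KOb/c replicate 2 lay among the WT libraries, so the groups overlapped. The log2 difference was -0.25 (SE 0.15, adjusted p = 0.342 by limma; WT: 2728 ± 230.3, KOb/c: 2330.1 ± 504, SD, n = 3 per group). It rested largely on KOb/c replicate 1: without that library it was -0.07, and without KOb/c replicate 2 it was -0.39. Myh7b is as long as Myh6, and the correction for length and GC content took its log2 difference to -0.37 (SE 0.14), with no overlap, as for 10% of all genes lower in KOb/c after the correction. The adjusted p after the correction was 0.160 by DESeq2.

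The light chains wrap the lever arm of the myosin head. Myl2 encodes the regulatory light chain of the ventricle (ENSMUSG00000013936; chromosome 5, 122100951 to 122113472, forward strand). It was counted at 226657, 213888 and 229909 in KOb/c replicates 1, 2 and 3, against WT values of 260779, 248202 and 249949. Each KOb/c library was below each WT library, by a small margin, a change of the mean by -11.7% (WT: 252977 ± 6814, KOb/c: 223484 ± 8468, SD, n = 3 per group). This gave a log2 difference of -0.18 (SE 0.11), with an adjusted p of 0.340 by limma and 0.0563 by DESeq2. It was -0.15 without KOb/c replicate 2.

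Myl3 encodes the essential light chain of the ventricle and of slow skeletal muscle (ENSMUSG00000059741; chromosome 9, 110741861 to 110769798, forward strand). Its values were 242623, 227678 and 230798 in KOb/c replicates 1, 2 and 3, against WT values of 291797, 262228 and 270636. Again no KOb/c library reached the lowest WT library (WT: 274887 ± 15236, KOb/c: 233699.9 ± 7884, SD, n = 3 per group). The log2 difference was -0.23 (SE 0.11), with an adjusted p of 0.242 by limma, 0.124 by edgeR and 0.0184 by DESeq2. Without KOb/c replicate 2 the adjusted p by DESeq2 was 0.0731, so the call ended, while the log2 difference was -0.21.

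Both light chain transcripts are short, and their differences were of the size that short genes had in general. Genes under 1000 nucleotides had a median log2 difference of -0.20 and genes from 1000 to 2000 nucleotides one of -0.15. After the correction for length and GC content the log2 difference was -0.01 (SE 0.13) for Myl2 and -0.07 (SE 0.14) for Myl3, the groups of both overlapped, and the adjusted p of Myl3 by DESeq2 was 0.789. The exact two-sided permutation test on the deposited values gave p = 0.1 for each.

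**Figure D2:**
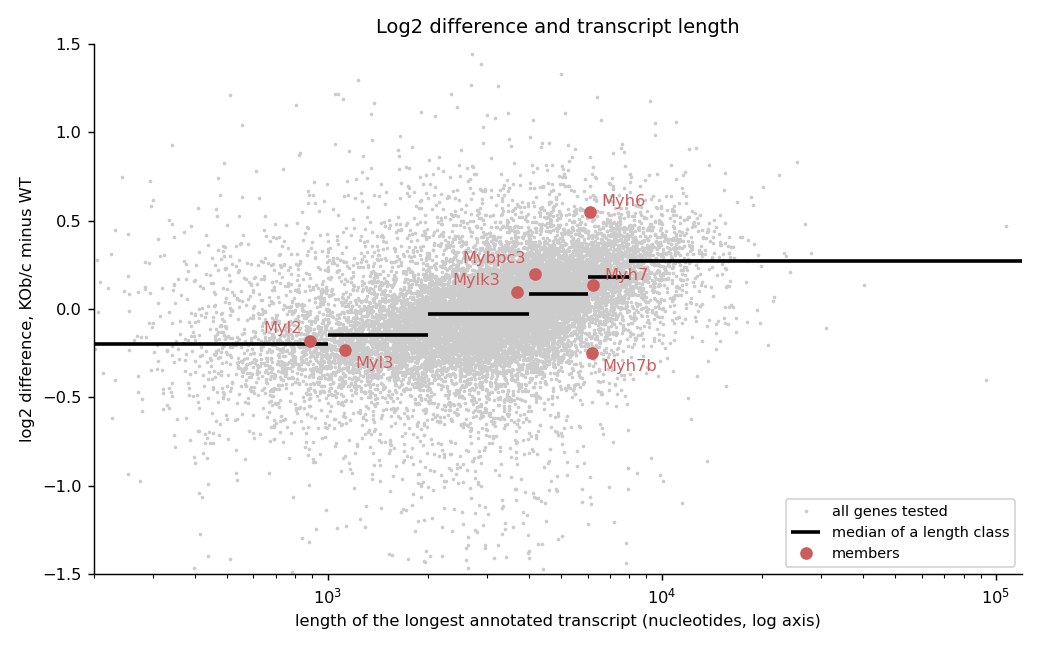
Log2 difference between KOb/c and WT hearts (vertical axis) against the length of the longest annotated transcript (horizontal log axis) for all genes tested (grey), with the median of each length class (black line) and the 7 members (red); 25 genes lie beyond the limits of -1.5 and 1.5. The classes rise from -0.20 to 0.27, Myl2 and Myl3 lie at or near the medians of their classes, Myh6 lies above its class and Myh7b below it.

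Mybpc3 encodes cardiac myosin-binding protein C (ENSMUSG00000002100; chromosome 2, 91118144 to 91136516, forward strand). It was listed at 219917, 182405 and 171039 in KOb/c replicates 1, 2 and 3, against WT values of 169904, 162884 and 164593. The KOb/c libraries were all higher, but the lowest of them exceeded the highest WT library by little, and KOb/c replicate 1 stood apart from the other two. It differed by 0.20 on the log2 scale (SE 0.12, adjusted p = 0.357 by limma; WT: 165793 ± 3661, KOb/c: 191120.2 ± 25578, SD, n = 3 per group). Without KOb/c replicate 1 it was 0.09, and without KOb/c replicate 2 it was 0.23. The correction left it at 0.18 (SE 0.14), with overlap.

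Mylk3 encodes the cardiac myosin light chain kinase (ENSMUSG00000031698; chromosome 8, 85324303 to 85386345, reverse strand). It had 39937, 34039 and 31916 normalized counts in KOb/c replicates 1, 2 and 3, against WT values of 33578, 32139 and 32862. The values of KOb/c ran from the lowest to the highest of all 6 libraries and the WT values lay between them. It differed by 0.10 on the log2 scale (SE 0.09, adjusted p = 0.566 by limma; WT: 32859 ± 719, KOb/c: 35298 ± 4156, SD, n = 3 per group). It was 0.00 without KOb/c replicate 1 and 0.12 without KOb/c replicate 2. For both Mybpc3 and Mylk3 the spread within KOb/c was wider than within WT, with a coefficient of variation of 13.4% against 2.21% and of 11.8% against 2.19%.

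**Figure D3:**
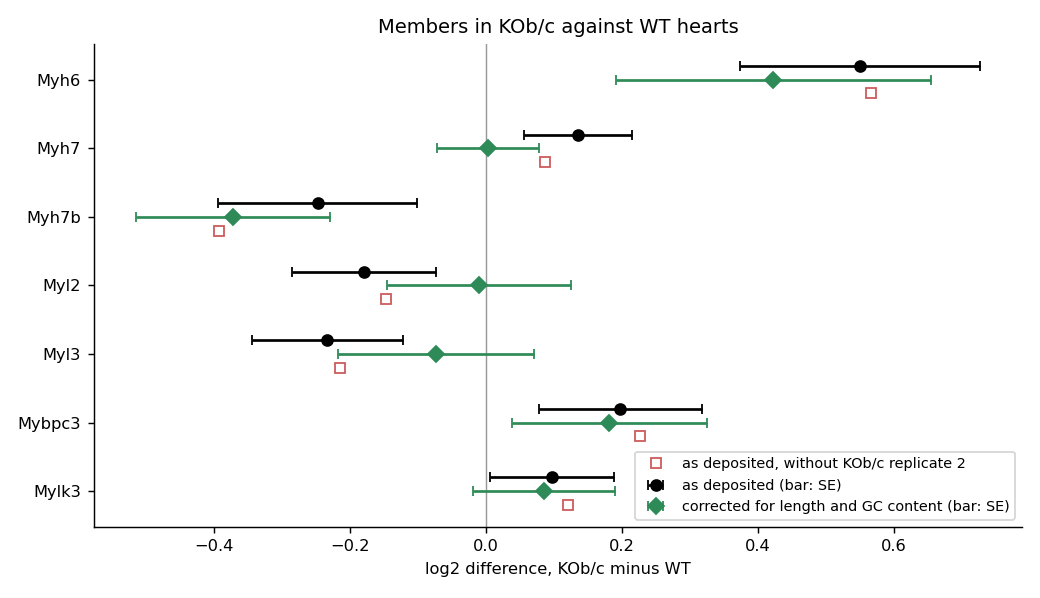
Log2 difference between KOb/c and WT hearts (horizontal axis) of each member as deposited (black, bar SE), corrected for transcript length and GC content (green, bar SE) and as deposited without KOb/c replicate 2 (open squares). Myh6 stays highest at 0.55, 0.42 and 0.57, while Myl2 and Myl3 move to -0.01 and -0.07 with the correction.

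Within a library, the ratio of beta to alpha heavy chain needs no scaling between libraries. Myh7 amounted to 0.641%, 0.770% and 0.709% of the Myh6 count in KOb/c replicates 1, 2 and 3 and to 1.05%, 0.893% and 0.882% in WT replicates 1, 2 and 3. The ratio was lower in each KOb/c library than in each WT library (WT: 0.943% ± 0.0950, KOb/c: 0.707% ± 0.0647, SD, n = 3 per group). The log2 difference was -0.41 (SE 0.11; exact two-sided permutation test, p = 0.1, the smallest possible), and -0.42 after the correction for length and GC content, under which both genes are shifted alike since their lengths and GC contents differ by little. Without KOb/c replicate 2 it was -0.48. The lower ratio came with a higher Myh6 count, while the Myh7 counts overlapped. Under quantile normalization, the log2 difference of the ratio was -0.08 (exact permutation p = 0.2).

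Reads could be shared between the neighbours. The longest transcripts of Myh6 and Myh7 have 330 windows of 150 bases, the length of a read, in common, which is 5.53% of the windows of Myh6 and 5.43% of those of Myh7. The other 5 members share no such window with any gene. Of windows of 50 bases, 22.6% in Myh6 and 22.2% in Myh7 occur in both. How reads that match both genes were counted is not given in the sources used here, so how much of the Myh7 count comes from Myh6 is not known. The Myh7 count was below 5.53% of the Myh6 count in every library, so these values set no limit on that part, and the level of Myh7 and the ratio are uncertain.

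The other ratios, 7 in number, were tested as a family, each with an exact two-sided permutation test and Benjamini-Hochberg adjustment. For 5 of them the groups did not overlap, and the exact test gave each p = 0.1 and an adjusted p of 0.14. The ratios of Myl2, Myl3 and Mybpc3 to the summed Myh6 and Myh7 counts share 1 denominator. Myh6 took 98.7% of the heavy chain counts in WT and 99.1% in KOb/c. These ratios, like Myh7/Myh6, are therefore not independent of each other or of the Myh6 count. Myl2 amounted to 17.9%, 18.7% and 21.0% of the summed Myh6 and Myh7 counts in KOb/c replicates 1, 2 and 3, against 34.7%, 28.3% and 32.4% in WT replicates 1, 2 and 3. Every KOb/c value was well below every WT value, with a log2 difference of -0.73 (SE 0.11), or -0.43 after the correction for length and GC content. Myl3 relative to the same sum was 19.1%, 19.9% and 21.1% in KOb/c and 38.9%, 29.9% and 35.1% in WT libraries. Its log2 difference was -0.78 (SE 0.12), or -0.49 corrected, and the groups were apart on both scales. These differences were -0.71 and -0.78 without KOb/c replicate 2, and -0.29 and -0.30 under quantile normalization. For Myl2 relative to Myl3 the groups overlapped, at 92.1% ± 2.65 in WT and 95.7% ± 3.44 in KOb/c (SD, n = 3 per group; log2 difference of 0.05, SE 0.04; exact permutation p = 0.3, adjusted p = 0.35).

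Mybpc3 was 20.8% ± 2.07 of the heavy chain sum in WT and 16.3% ± 0.909 in KOb/c (SD, n = 3 per group), a log2 difference of -0.35 (SE 0.10), -0.33 without KOb/c replicate 2, and -0.24 with overlap after the correction. It was -0.09 under quantile normalization (exact permutation p = 0.6). Myh7b was 36.7% ± 2.53 of Myh7 in WT and 28.5% ± 5.37 in KOb/c hearts, a log2 difference of -0.38 (SE 0.18) that was -0.22 without KOb/c replicate 1 and -0.48 without KOb/c replicate 2. The kinase Mylk3 was 13.0% ± 0.140 of its substrate Myl2 in WT and 15.8% ± 1.87 in KOb/c hearts, a log2 difference of 0.28 (SE 0.10) that was 0.27 without KOb/c replicate 2 and 0.10 with overlap after the correction. Myl7, the atrial regulatory light chain, was 2.32%, 6.48% and 7.26% of Myl2 in WT and 1.31%, 6.25% and 7.33% in KOb/c libraries. Replicate 1 of each genotype was lowest and the groups overlapped (log2 difference of -0.29, SE 0.95; exact permutation p = 0.7, adjusted p = 0.70), and without KOb/c replicate 2 the log2 difference was -0.62.

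**Figure D4:**
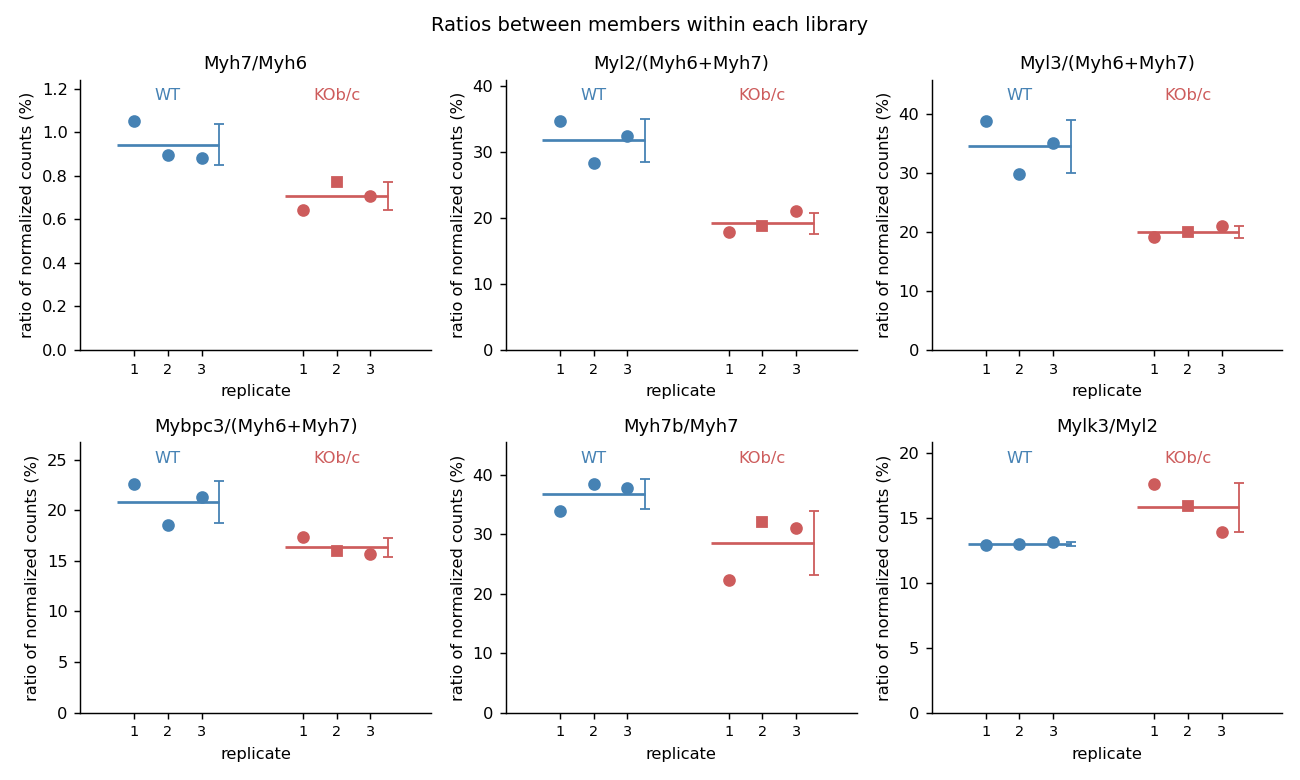
Ratios of normalized counts in percent (vertical axes, from 0) in each library (horizontal axis, replicate), with the mean (line) and SD (bar) of 3 WT (blue) and 3 KOb/c (red) libraries; the square is KOb/c replicate 2. Myh7/Myh6 and both light chain ratios are lower in every KOb/c library than in every WT library, with Myl3 at 19.1% to 21.1% of the heavy chains in KOb/c and 29.9% to 38.9% in WT.

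The 7 members together took 4.16%, 4.09% and 4.04% of all counts in KOb/c replicates 1, 2 and 3, against 3.51%, 3.67% and 3.50% in the WT libraries. The share was higher in every KOb/c library, by 0.537 percentage points (WT: 3.56% ± 0.0994, KOb/c: 4.10% ± 0.0578, SD, n = 3 per group; exact two-sided permutation test, p = 0.1). Myh6 alone went from 1.84% ± 0.151 to 2.56% ± 0.0631 of all counts, while Myl2 took 0.589% ± 0.0154 in WT and 0.495% ± 0.0294 in KOb/c and Myl3 0.640% ± 0.0352 and 0.517% ± 0.0127 (SD, n = 3 per group). With the mitochondrially encoded genes left out of the total, the difference of the members was 0.708 percentage points.

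Levels of different genes were compared per kilobase of the longest protein-coding transcript. On this scale the order in WT hearts was Myl3 (293369 ± 16260.4 normalized counts per kilobase), Myl2 (284563 ± 7664), Myh6 (129617 ± 11018), Mybpc3 (39825 ± 879), Mylk3 (8891 ± 195), Myh7 (1195 ± 96.6) and Myh7b (443 ± 37.4; SD, n = 3 each). Myl3 and Myl2 overlapped, and every other neighbour in this order was separate. In KOb/c hearts the light chains were again first and overlapped, at 251389 ± 9526 for Myl2 and 249413 ± 8414 for Myl3, while Myh6 stood at 189663 ± 14648. Myl2 per heavy chain transcript was thus 219% ± 22.4 in WT and 132% ± 11.1 in KOb/c hearts on the scale per kilobase (SD, n = 3 per group). Division by length does not remove the trend of the differences with length. The log2 difference of this ratio of counts was -0.73 as deposited and -0.43 after the correction for length and GC content. Of the counts of the 3 heavy chain genes, Myh6 took 98.7% ± 0.102 in WT and 99.1% ± 0.116 in KOb/c hearts.

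Several genes overlap the members. Mhrt (ENSMUSG00000097652), an antisense RNA that overlaps an exon of Myh7 on the opposite strand, was listed at 1692, 1784 and 1719 in KOb/c and at 2101, 1838 and 1925 in WT replicates 1, 2 and 3. All KOb/c libraries were lower (log2 difference of -0.17, SE 0.07, adjusted p = 0.190 by limma). Whether the counting used strand is not given in the sources used here, so reads from Myh7 and Mhrt may not have been kept apart. The hairpin gene Mir208b (ENSMUSG00000077928), inside a Myh7 intron, had 238, 294 and 282 in KOb/c and 432, 321 and 319 in WT libraries. It too was lower throughout, with a log2 difference of -0.39 (SE 0.15, adjusted p = 0.166 by limma). Mir208a (ENSMUSG00000065432), inside a Myh6 intron, was barely covered, at 4.43 to 11.4 in KOb/c and 10.3 to 24.9 in WT libraries, while its host gene was higher in KOb/c. Its groups overlapped, as did those of Gm17428 at the Myh7 locus, at 48.6 to 96.1 in KOb/c and 69.6 to 86.1 in WT libraries. Mir499, in the Myh7b intron, was absent from the deposited table. Trpc4ap (ENSMUSG00000038324) overlaps the end of Myh7b on the opposite strand and had more counts than it, from 5360 to 5593 in KOb/c and from 4788 to 5137 in WT libraries, so the Myh7b count may hold some of its reads. It was higher in KOb/c, with a log2 difference of 0.17, while Myh7b was at -0.25. Pth1r and Ccdc63, which overlap Myl3 and Myl2, had 0.221% and 0.00919% of the counts of their neighbours in KOb/c.

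The regulators of the cardiac myosin genes were taken as a list of 28, all measured. By limma 0 passed the adjusted threshold and 14 had an unadjusted p under 0.05. Over all genes 23.5% had an unadjusted p under 0.05. DESeq2 called 6 higher and 1 lower, where 6.15% and 3.76% of all genes were called. The groups were apart with KOb/c higher for 14 and lower for 1, beside 15.6% and 14.6% of all genes. The same shares over all genes stand beside the counts of the lists that follow. The median log2 difference of the regulators was 0.20, against 0.00 over all genes. It was 0.09 after the correction for length and GC content, and the median transcript of the list was 5009.5 nucleotides long, against 3188 over all genes. With KOb/c replicate 2 left out the median was 0.22 and DESeq2 called 7 higher and 1 lower. Tead1, which binds the MCAT motif, was at 7252 ± 783 in KOb/c and 5269 ± 543 in WT hearts (log2 difference of 0.46, adjusted p = 0.00125 by DESeq2, 0.196 corrected). Myocd, the cofactor of serum response factor, had a log2 difference of 0.44 (adjusted p = 0.00189 by DESeq2, 0.0490 corrected), and Med13, a Mediator subunit that miR-208a is known to repress, one of 0.39 (0.00897 by DESeq2, 0.407 corrected). Hopx, a partner of histone deacetylases, was lower, at 11496 ± 656 against 13496 ± 380.3 (log2 difference of -0.23, adjusted p = 0.0240 by DESeq2, 0.636 corrected). The thyroid hormone receptor genes had log2 differences of -0.01 for Thra, with overlap, and 0.32 for Thrb, with all KOb/c libraries higher (adjusted p = 0.0530 by DESeq2), or 0.17 corrected (0.50) and 0.40 without KOb/c replicate 2 (0.0237, which is a call); they were named because thyroid hormone sets the switch of heavy chains.

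Of 10 other proteins of the thick filament and M-band, 2 were called higher by DESeq2, and 0 passed by limma, with 2 at an unadjusted p under 0.05. Ttn, the giant spring that spans the filament, was at 139249 ± 19883 in KOb/c and 99967 ± 6510 in WT hearts (log2 difference of 0.47, adjusted p = 0.000695 by DESeq2, 0.115 corrected). Myom1, which links myosins at the M-band, was at 73023 ± 4183 and 56964 ± 3225 (log2 difference of 0.36, adjusted p = 0.000619 by DESeq2, 0.0638 corrected). The median of the 10 was 0.17, 0.05 after the correction and 0.09 without KOb/c replicate 2. Of 8 other heavy chain genes 5 were in the deposited table, and only Myh14, which encodes a heavy chain of non-muscle myosin, was called by DESeq2 (5668 ± 609 against 4139.5 ± 437; log2 difference of 0.45, adjusted p = 0.00160 by DESeq2 and 0.0815 by limma). Of 5 other light chain genes limma called 0, with 0 at an unadjusted p under 0.05, and DESeq2 called 0.

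Among 11 genes of light chain kinases and the myosin phosphatase, 0 passed by limma, 4 had an unadjusted p under 0.05 and DESeq2 called 3 higher. Mylk4, a kinase related to Mylk3, was at 12716, 7454 and 9069.9 in KOb/c and 5811, 6682 and 5869 in WT replicates 1, 2 and 3. It was thus higher in each KOb/c library, with a log2 difference of 0.64 (SE 0.17) and 0.52 after the correction, and an adjusted p of 0.00105 by DESeq2 before and 0.0206 after it. The log2 difference without KOb/c replicate 2 was 0.81. The phosphatase targeting subunits Ppp1r12a and Ppp1r12b had log2 differences of 0.34 and 0.38 and were called by DESeq2 before the correction but not after it (adjusted p = 0.157 and 0.409). Ppp1r12c was lower without overlap, at -0.16 (adjusted p = 0.211 by DESeq2). Of 11 genes listed as kinases of myosin-binding protein C and their subunits, DESeq2 called 1, Prkar2a, the regulatory subunit of protein kinase A (log2 difference of 0.33, adjusted p = 0.00579, 0.143 corrected). Limma passed 0 of them, and 5 had an unadjusted p under 0.05. The groups were apart with KOb/c higher for 6 and lower for 0. Among the 6 were Prkacb and Speg, at 0.21 and 0.20, or 0.16 and -0.02 corrected.

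Of 12 genes of myosin folding and turnover, 0 passed by limma, 5 had an unadjusted p under 0.05 and DESeq2 called 3 higher. Fbxo32, a ubiquitin ligase subunit of muscle, was at 10775, 8862 and 7848 in KOb/c replicates 1, 2 and 3, against WT values of 4412, 5617 and 6944. All KOb/c libraries were higher, with a log2 difference of 0.71 (SE 0.17), 0.53 after the correction, and an adjusted p by DESeq2 of 0.000534 before and 0.0134 after it. Its log2 difference without KOb/c replicate 2 was 0.73 with an adjusted p of 0.0932 by DESeq2, so that call ended. Bag3, a co-chaperone of the sarcomere, had a log2 difference of 0.29, or 0.37 corrected (adjusted p = 0.0354 and 0.0426 by DESeq2). Smyd1, a methyltransferase needed for thick filament assembly, had one of 0.25 (adjusted p = 0.0447, 0.132 corrected), and Smyd2 was lower without overlap at -0.21 (adjusted p = 0.136 by DESeq2).

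The genes of the fetal programme, which commonly return in a stressed ventricle along with Myh7, gave 1 call by DESeq2 among 9 and 0 by limma, with 3 at an unadjusted p under 0.05. That gene was Nppb, which encodes B-type natriuretic peptide, and it was lower in KOb/c. It stood at 1145, 2338 and 1010.1 in KOb/c and at 4452, 3809 and 3545 in WT replicates 1, 2 and 3. The KOb/c libraries were all below the lowest WT library, KOb/c replicate 2 being the highest of them. The log2 difference was -1.49 (SE 0.27), with an adjusted p of 0.0815 by limma and 0.0135 by DESeq2, or 0.0887 by DESeq2 after the correction. The difference was -1.86 without KOb/c replicate 2 (adjusted p = 1.65e-43 by DESeq2). The other 8, among them Nppa, Acta1 and Ankrd1, overlapped between the groups.

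The summed levels of markers of other muscle differed between libraries and overlapped between the genotypes. Of the atrial markers 1, Tbx5, was higher in KOb/c without overlap. The summed level of 10 atrial markers, all measured, was 21941 in KOb/c replicate 1 and 31624 in WT replicate 1, against 84357 to 125072 in the other 4 libraries. The atrial light chain Myl7 was at 2972 and 6040.0 in these 2 libraries and at 13367 to 18155 in the others. Without KOb/c replicate 1 the log2 difference was 0.49 for Myh6 and -0.35 for Myh7/Myh6, and without WT replicate 1 it was 0.51 and -0.33. The part of atrial RNA in the results was not tested.

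Most skeletal and perinatal muscle genes were highest in KOb/c replicate 2, the library in which Slc4a4 was at the WT level. Of 12 skeletal muscle markers 9 were in the deposited table, and 7 of them were highest there, while Myh2 and Myl1 were highest in WT replicate 3. The sum of the 9 was 5630 in KOb/c replicate 2, against 1854 to 4152 in the other 5 libraries. Myh8, the perinatal heavy chain, was at 2896 in it and at 6.95 to 611 in the others, and Myh3, the embryonic heavy chain, at 316 against 0.992 to 56.7. Myh4, Myod1 and Myog were absent from the deposited table, in which the lowest mean count was 9.888. Whether they were left out for low counts is not given. The part of this RNA in the results was not tested. Without that library the log2 difference as deposited was 0.57 for Myh6, -0.15 for Myl2 and -0.21 for Myl3.

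**Figure D5:**
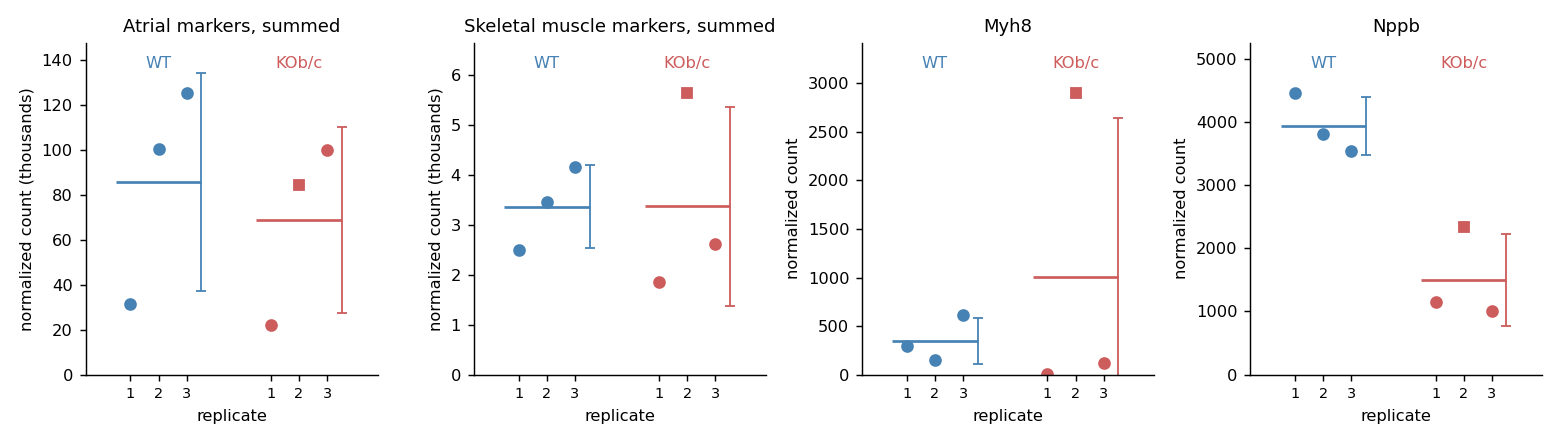
Summed normalized counts of atrial and of skeletal muscle markers and normalized counts of Myh8 and Nppb (vertical axes, from 0) in each library (horizontal axis, replicate), with the mean (line) and SD (bar, clipped at 0) of 3 WT (blue) and 3 KOb/c (red) libraries; the square is KOb/c replicate 2. Atrial markers are lowest in replicate 1 of both genotypes, skeletal markers and Myh8 are highest in KOb/c replicate 2, and Nppb is lower in all KOb/c libraries.

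The genes whose log2 values over the 6 libraries were most like those of 3 members were listed, among 11915 genes whose mean was at or above 100. With 6 libraries that share depth and genotype, many genes come close, and the values describe these libraries only. Nearest to Myh6 were Sptb, an erythroid and muscle spectrin (Pearson's r = 0.999), Scn4a, a sodium channel of skeletal muscle (0.998), and Uba1, the ubiquitin-activating enzyme (0.996), and 1133 genes had an r over 0.9. Scn4a was at 2082 ± 324 in KOb/c and 989.7 ± 157 in WT (SD, n = 3 each). Nearest to Myh7 were N4bp1 (0.993), Rpgrip1l (0.987) and Slc38a10 (0.980), with 106 genes over 0.9. Nearest to Mylk3 were Ctnnal1 (0.999), Lrrc58 (0.986) and Slc39a6 (0.986), with 181 genes over 0.9.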

How the data were processed

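RNAseq was performed by a sequencing service on total RNA of hearts from 3 KOb/c and 3 WT mice, read from both ends on an Illumina HiSeq. The submitters' processing notes name Trimmomatic 0.36, STAR 2.5.2b, featureCounts, Subread 1.5.2, DESeq2 and the build GRCm38. The authors deposited a normalized signal per gene, namely a read count over the library's size factor, with no scaling to length. In every library 100% of the values were whole multiples of 1 read (tolerance 0.01), so reads were recovered. The divisors ran from 0.962 to 1.13 and equalled the size factors of DESeq2 on these reads.

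KOb/c and WT were set against each other by limma 3.58.1 under R 4.3.3, with log2(normalized count + 1) as the response and a variance trend, two-sided, over 16016 genes with a mean of at least 10, with Benjamini-Hochberg adjusted p-values and 0.05 as the threshold. This scale understates changes of low counts. edgeR 4.0.16 and DESeq2 1.42.0 were run on the recovered reads. For the correction, the deviations of a library from the means of the genes were regressed on splines (5 degrees of freedom each) of log2 transcript length and of GC content, and the fitted part was taken away. Symbols, positions and lengths came from GENCODE M21 (GRCm38), matched for 15980 identifiers, with length and GC known for 99.8% of genes. The longest annotated transcript of Myl3 has 2 exons, so levels per kilobase used the longest protein-coding transcript. The correction and the length classes used the longest annotated transcript throughout. For Myl3 this was 1125 nucleotides, against 937 for its longest protein-coding transcript. For single values, ratios and shares, exact permutation tests (two-sided) were used. The procedures were tested on simulated data.

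Groups and replicate numbers came from the sample labels. The p-values measure the spread between these mice only, and counting intervals cover counting error only. Genes named were the 7 members, Slc4a4, from each list up to 3 of the largest rises and falls without overlap between the groups at a mean of at least 100, defining markers, and the 3 genes most like Myh6, Myh7 and Mylk3. Thra, Thrb, Nppa, Acta1, Ankrd1 and the genes that overlap members were added outside this rule. The members, lists and tests were chosen with earlier results of these data known.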

Additional observations from a re-analysis of the deposited data

How the results depend on the processing

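The number of members called was 0 by limma. It was 2 with DESeq2 on the recovered reads, 1 with DESeq2 and the correction for length and GC content, and 1 with DESeq2 without KOb/c replicate 2; the last 2 settings were chosen after seeing the data. It stayed at 0 with each library left out in turn (0 to 0). Over all genes limma called 0 (3764 at an unadjusted p under 0.05), and 0 to 3 with each library left out, 3 being without KOb/c replicate 2. DESeq2 called 1587, 345 after the correction and 1195 without KOb/c replicate 2, and limma with the correction and without that library called 2. The corrected log2 difference without KOb/c replicate 2 changed sign for Myh7, to -0.0405, and for Myl2, to 0.0240, neither being a called value. For Myl7/Myl2 the log2 difference changed sign without KOb/c replicate 1, to 0.50, and without WT replicate 3, to 0.02; with each library left out in turn it ran from -0.81 to 0.50. In both cases the cause was not tested. The log2 difference of Myh6 lay between 0.16 and 0.62 over 23 alternatives and that of Myh7/Myh6 between -0.48 and -0.08 over 10, quantile normalization giving the smallest of both. The direction of Myh6, Myl3, Myh7b, Mybpc3 and Mylk3 held in all 23. Some of these alternatives, such as another filter, no variance trend or the replicate block, leave the limma log2 difference as it is. They therefore could not change a direction.

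The labels do not say whether the replicate numbers mark pairs. The deviations of same-numbered libraries correlated at 0.23, 0.07 and -0.03, and those of libraries with different numbers at -0.18 to 0.15. The largest value was that of replicate 1, and these few values cannot settle whether libraries were paired. With the replicate number as a block limma called 0 genes and 0 members, with 3924 genes at an unadjusted p under 0.05, and 0 of each with the block and the correction together. The difference of Myh7/Myh6 was then -0.41 and that of the members' share 0.537 percentage points (exact permutation over 3 pairs, p = 0.25, the smallest possible).

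With 3 mice a group the exact tests could not go below 0.1. Counting error was at most 1.99% of the count of any member, and the coefficient of variation between mice ran from 2.19% to 21.6%.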

Other observations

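Markers of other cells were measured in the same hearts. Over all genes DESeq2 called 6.15% higher and 3.76% lower, and 23.5% had an unadjusted p under 0.05 by limma. Endothelial markers, 7 in number, gave 2 genes higher and 1 lower by DESeq2, with 0 by limma and 3 at an unadjusted p under 0.05. Egfl7, secreted by endothelium, was at 4385 ± 265 in KOb/c and 5954 ± 629.6 in WT (SD, n = 3 each; log2 difference of -0.44, adjusted p = 0.000665 by DESeq2, 0.0457 after the correction for length and GC content). Cdh5 and Tek, of endothelial junctions and growth, had log2 differences of 0.25 and 0.22 (adjusted p = 0.0286 and 0.0384 by DESeq2, 0.150 and 0.374 corrected). Without KOb/c replicate 2 their log2 differences were 0.23 and 0.20 and their adjusted p 0.0991 and 0.119, so these calls ended. The summed level of the 7 ran from 44971 to 48362 in KOb/c and from 43677 to 44786 in WT libraries.

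Of 7 fibroblast markers DESeq2 called 2 higher and 1 lower, limma 0, with 4 at an unadjusted p under 0.05. Pdgfra was at 2689 ± 108 in KOb/c and 1939.9 ± 384 in WT hearts (log2 difference of 0.49, adjusted p = 0.00759 by DESeq2, 0.187 corrected). Postn, named after its values were seen, was lower with overlap, at -0.43 (adjusted p = 0.0194 by DESeq2), or -0.52 corrected (0.0155), and without KOb/c replicate 2 it was at -0.42 (0.0872). Col1a1, named likewise, was at 0.30 (0.0335), or 0.19 corrected (0.379), and 0.29 without KOb/c replicate 2 (0.106). Of 7 smooth muscle markers DESeq2 and limma called 0, with 1 at an unadjusted p under 0.05. Of 7 blood and immune markers 6 were in the deposited table and DESeq2 called 1 lower, Lyz2 of myeloid cells (log2 difference of -0.30, adjusted p = 0.0463 by DESeq2, 0.431 corrected; -0.35 and 0.0556 without KOb/c replicate 2). Their summed level ran from 30678 to 116137 in KOb/c and from 50608 to 104263 in WT libraries.

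Among 16 cardiomyocyte markers that are not members, DESeq2 called 4 higher and 0 lower, limma 0, with 4 at an unadjusted p under 0.05. Ryr2, the calcium release channel, was at 69453 ± 14002 in KOb/c and 45063 ± 3661 in WT hearts (log2 difference of 0.61, adjusted p = 0.000196 by DESeq2, 0.0738 corrected). Atp2a2, the calcium pump of the sarcoplasmic reticulum, had a log2 difference of 0.48, or 0.34 corrected, and Actn2, of the Z-disc, one of 0.37, or 0.42 corrected; both were called by DESeq2 also after the correction (adjusted p = 0.0126 and 0.00654). Tpm1, Tnnc1 and Csrp3 were lower without overlap, at -0.15, -0.15 and -0.16, and were not called; corrected, they were at -0.12, 0.04 and -0.10. Of 7 ventricular markers, Myl2 and Myl3 among them, DESeq2 called Kcnj2 higher (log2 difference of 0.56, 0.46 corrected, adjusted p = 0.00496 by DESeq2 after the correction) and Myl3 lower; the transcription factor Hey2 was at 0.23 without overlap. Tbx5, listed with the atrial markers, was at 0.32 without overlap and not called (adjusted p = 0.0559 by DESeq2).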
